A study of Mus musculus with 32 samples.

Results

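The hippocampal response to D-45113 over 5xFAD and wild-type (WT) mice was measured by setting all mice given D-45113 against all mice given the vehicle, with genotype held as a covariate. All 32 libraries of the series entered this comparison, 16 from D-45113 mice and 16 from vehicle mice, chosen by the genotype and treatment in their titles. The groups were 5xFAD/D-45113, 5xFAD/Veh, WT/D-45113 and WT/Veh, each with 8 mice (4 females and 4 males) aged 12 months. D-45113 is a hydroxyl dendrimer (HD) carrying an inhibitor of the CSF1R kinase, which was injected IP from 11 months of age at a dose of 200 mg/kg, 2 times per week over 4 weeks. Vehicle mice received the HD itself, so the comparison is between the conjugate and its carrier, not between the conjugate and no injection. 5xFAD mice express mutant human transgenes from Thy1 regulatory sequences in neurons and build up amyloid plaques. RNA came from bulk hippocampus, in which fewer cells of a type and less RNA per cell cannot be told apart.

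CSF1R is the receptor tyrosine kinase through which CSF1 and IL-34 keep microglia and other macrophages alive, and it is also found on monocytes outside the brain. Acute-phase genes such as Lcn2 and Lrg1 are induced by cytokines of the IL-6 and IL-1 families in liver, endothelium and astrocytes. Glucocorticoids act on the hippocampus through a ligand-activated transcription factor that raises genes such as Sgk1, Hif3a and Plin4 in astrocytes, vessels and other cells.

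Counts for 54532 genes were deposited, and 16723 genes passed the filter on low counts. Total counts ran from 10707410 to 28869539 in D-45113 mice and from 15444249 to 30368498 in vehicle mice. The D-45113 libraries were smaller (2-sided permutation test over mice with 100000 resamples, p = 0.0166). Levels are given below as CPM, which are counts relative to the library total scaled by TMM, and 3 CPM values listed together are the lowest, the median and the highest mouse of a group. Log2 fold changes are D-45113 over vehicle. A gene was called where edgeR's quasi-likelihood test gave an adjusted p under 0.05 (Benjamini-Hochberg over the 16723 genes). Thy1, whose regulatory sequences the transgenes carry, exceeded all WT levels in 14 of 16 5xFAD mice, the exceptions being 5xFAD/D-45113 mice 1M and 4F. Leaving out these mice, as was decided after seeing the data, 104 genes were higher and 216 lower.

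With D-45113, 190 genes (1.14% of those tested) were higher and 264 genes (1.58%) were lower, in all 2.71% of the genes tested. The counts of list members called higher or lower below stand against these shares of all genes tested. The gene lists were chosen with earlier results of these data known. Among the 190 were the acute-phase genes Lrg1 and Lcn2, the alarmin genes S100a8 and S100a9, glucocorticoid-responsive genes, and genes of astrocytes and vessels. Among the 264 were the peptidase gene Amz1, genes of neuronal signalling, cholesterol synthesis genes and a few microglial and interferon-response genes. The median log2 fold change was 0.60 for the higher genes, 48 of which were above 1, and -0.50 for the lower genes, 24 of which were below -1. Over all genes tested the median was 0.0083, and 52.1% of them had a log2 fold change above 0. In no gene did the 16 D-45113 mice lie wholly apart from the 16 vehicle mice (0% of 16723 genes in either direction). In 5xFAD mice 40 of the 16723 genes (0.239%) were higher without overlap between treatments and 37 (0.221%) were lower, among them 20 of the 190 higher and 29 of the 264 lower genes. In WT mice 1 gene (0.00598%) was higher and 4 genes (0.0239%) were lower without overlap, among them 0 of the 190 and 3 of the 264.

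With each genotype estimated on its own in a model of 4 groups, all 454 genes had the same direction in 5xFAD and in WT mice, which the choice of genes by their common effect favours. At an unadjusted p under 0.05 there were 442 of the 454 in 5xFAD mice, 277 in WT mice and 265 in both, made up of 94 higher and 171 lower genes. The change was larger in 5xFAD mice for 361 of the 454. The direct test of the difference, the interaction of genotype and treatment, called 0 genes with edgeR's quasi-likelihood test (0% of 16723), 0 with limma voom, 14 with DESeq2 and 11 with edgeR's likelihood ratio test. At an unadjusted p under 0.05 the interaction had 1591 genes (9.51%), of which 83 were among the 454. When each genotype was fitted alone, so that no mouse was shared, 0 genes passed in WT mice at adjusted p (1076 at an unadjusted p under 0.05), while 307 were higher and 197 lower in 5xFAD mice. Over the 15359 genes in both fits the log2 fold changes of the genotypes had a Pearson r of 0.208 and a Spearman coefficient of 0.176, given as a description across genes, which share libraries. The same direction in both genotypes was seen for 56.7% of the 15359 genes, for 756 of 1065 genes (71.0%) at an unadjusted p under 0.05 in WT mice, and for 29 of 33 genes (87.9%) at an unadjusted p under 0.001. Chosen in 5xFAD mice instead, 2049 of 3057 genes (67.03%) at an unadjusted p under 0.05 and 294 of 392 genes (75%) at an unadjusted p under 0.001 had the same direction in WT mice.

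**Figure D1:**
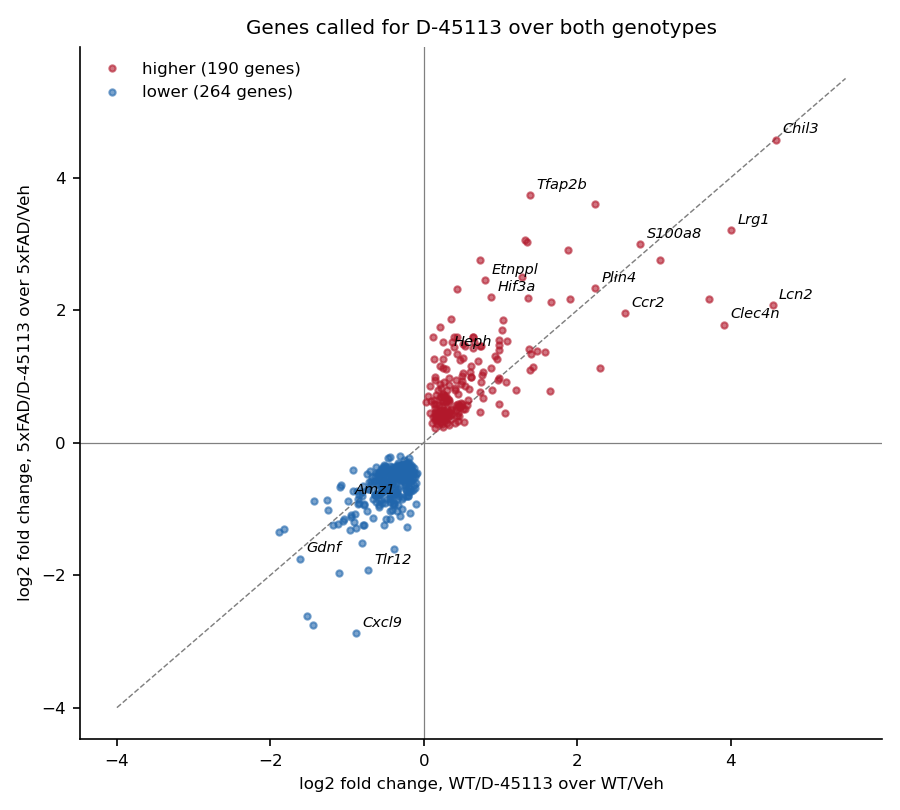
The 454 genes called for D-45113 over both genotypes, with the log2 fold change in WT mice on the horizontal axis and that in 5xFAD mice on the vertical axis. Each point is a gene, red for 190 higher and blue for 264 lower genes, and the dashed line marks equal change. All points have the same sign on both axes, and 361 have the larger change in 5xFAD mice, whereas Lcn2, Clec4n, Lrg1 and Ccr2 lie on the WT side of the line.

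Marker genes of tissue next to the hippocampus varied widely between mice and differed in median between treatments. The summed level of 20 choroid plexus genes was 352, 1909 and 9497 CPM in 5xFAD/D-45113 mice, against 346, 600.4 and 1506 CPM in 5xFAD/Veh mice. It was 298, 1942 and 6159 CPM in WT/D-45113 mice, against 355, 701 and 5645 CPM in WT/Veh mice. All groups overlapped, with the highest sums in 5xFAD/D-45113 mice 2M and 1M. The 15 thalamus genes summed to 874, 1462 and 2757 CPM in 5xFAD/D-45113 mice and 569, 808 and 1149.9 CPM in 5xFAD/Veh mice. In WT mice they summed to 689, 983 and 2948 CPM with D-45113 and 722, 1084 and 2396 CPM with vehicle, so that the medians differed in 5xFAD mice by more than in WT mice. Of these lists 0 of 20 and 0 of 15 genes were called, with median log2 fold changes of 1.08 and 0.72. By genotype the medians were 2.17 and 1.36 in 5xFAD mice and 0.13 and -0.0037 in WT mice, differences that were not tested. The 18 genes of the habenula, striatum and midbrain went the other way, with 256, 1533 and 3352 CPM over all D-45113 mice and 671, 3109.7 and 6652 CPM over all vehicle mice, 13 of 18 genes negative and a median of -0.84 on the log2 scale. Of these 18, Penk was called. With covariates for the thalamus and choroid plexus all 454 genes kept their direction and 446 had an unadjusted p under 0.05, but 41 of them were called. Of all 16723 genes tested, 1855 had an unadjusted p under 0.05 in that fit. The median ratio of the log2 fold changes of the 454 genes to those without covariates was 0.84. With the scores of the meninges and of the habenula, striatum and midbrain added, the direction held for all 454, the ratio was 0.708, and 14 were called. The choice of the 454 genes on the same mice favours the kept directions in both fits and the count of 446. In a fit added after seeing the data, which left out the 6 mice with a choroid plexus sum above 5 times the median, 89 genes were higher and 183 lower.

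**Figure D2:**
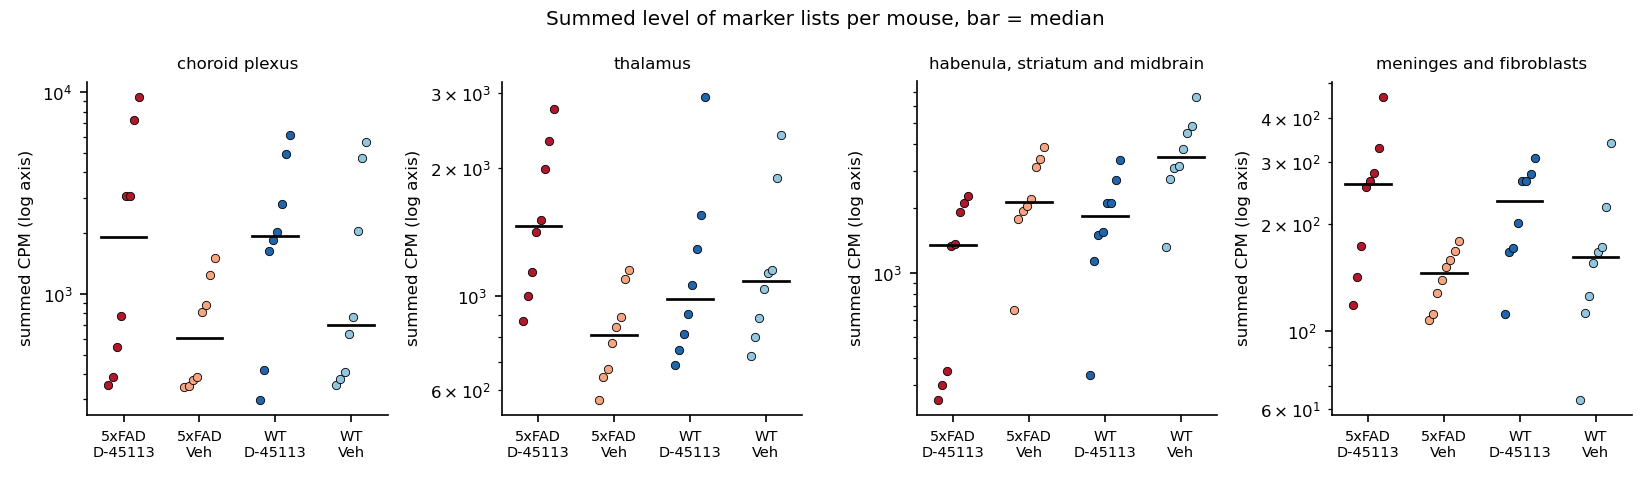
Summed CPM, on a log axis, of marker genes of the choroid plexus, the thalamus, the habenula, striatum and midbrain, and the meninges in each mouse. Each point is a mouse, 8 in each group, and the bar is the median. Choroid plexus sums range over more than an order of magnitude within 3 of the groups, and the sums for the habenula, striatum and midbrain sit lower with D-45113 in both genotypes.

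The response rested on many mice but not evenly on each. Of the 454 genes, 214 (80 higher and 134 lower) were called with any of the 32 mice left out. Leaving out 1 mouse gave 91 to 250 higher and 144 to 326 lower genes. The counts fell by over 1.5 times without 5xFAD/Veh mouse 1F (91 higher and 144 lower), 5xFAD/Veh mouse 4F (102 and 168) and WT/Veh mouse 1M (116 and 160), and for the higher genes alone also without 5xFAD/D-45113 mouse 2M (114) and 5xFAD/Veh mouse 2F (118). Fitted by sex, females gave 81 higher and 40 lower genes and males gave 0 genes (1896 at an unadjusted p under 0.05). Of the 454 genes, 453 of 453 with a value in females and 449 of 449 in males had the direction of the pooled fit. The choice of these genes by their pooled effect in the same mice favours this.

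The acute-phase genes Lrg1 and Lcn2 had the smallest p among the higher genes. Lrg1 encodes leucine-rich alpha-2-glycoprotein, a secreted acute-phase protein of liver and endothelium, and spans 56119678 to 56122001 of mm10 chromosome 17. Its level was 0.741, 6.99 and 16.9 CPM in 5xFAD/D-45113 mice, against 0.283, 0.514 and 2.13 CPM in 5xFAD/Veh mice. In WT/D-45113 mice it was 0.341, 4.94 and 15.5 CPM, against 0.199, 0.332 and 1.06 CPM in WT/Veh mice. The groups overlapped only through 1 low D-45113 mouse of each genotype, 5xFAD/D-45113 mouse 3F and WT/D-45113 mouse 3M. Lrg1 was 11.995-fold higher over both genotypes (log2 fold change 3.58, SE 0.43, adjusted p = 1.8e-05), with log2 fold changes of 3.21 in 5xFAD and 4.01 in WT mice. Lcn2, the gene of the iron-binding acute-phase protein lipocalin 2, had 1.66, 6.86 and 12.7 CPM in 5xFAD/D-45113 mice, against 0.407, 1.58 and 2.67 CPM in 5xFAD/Veh mice. WT/D-45113 mice had 0.272, 3.03 and 11.002 CPM of Lcn2 and WT/Veh mice had 0, 0.1303 and 0.344 CPM. In 5xFAD mice the treatments overlapped through the low 5xFAD/D-45113 mouse 4M, and in WT mice through the low WT/D-45113 mouse 3M. Lcn2 was 8.35-fold higher (log2 fold change 3.06, SE 0.43, adjusted p = 0.000219), with 2.08 in 5xFAD and 4.55 in WT mice, and the difference of the genotypes was -2.47 (adjusted p = 0.32). Both genes were called with either set of marker scores as covariates (Lrg1 log2 fold change 3.25 and 3.27, Lcn2 3.03 and 3.26), and with each mouse left out. Cp, the copper-carrying ferroxidase ceruloplasmin, was also higher (log2 fold change 0.69, SE 0.15, adjusted p = 0.0102) but was not called in the covariate fits (adjusted p = 0.187 and 0.467). Of the 17 measured genes of the acute-phase and IL-6 family list, 3 were higher (Lrg1, Lcn2 and Cp) and 0 lower, and 15 had a positive log2 fold change. The median was 0.40, with 0.088 in 5xFAD and 0.65 in WT mice.

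**Figure D3:**
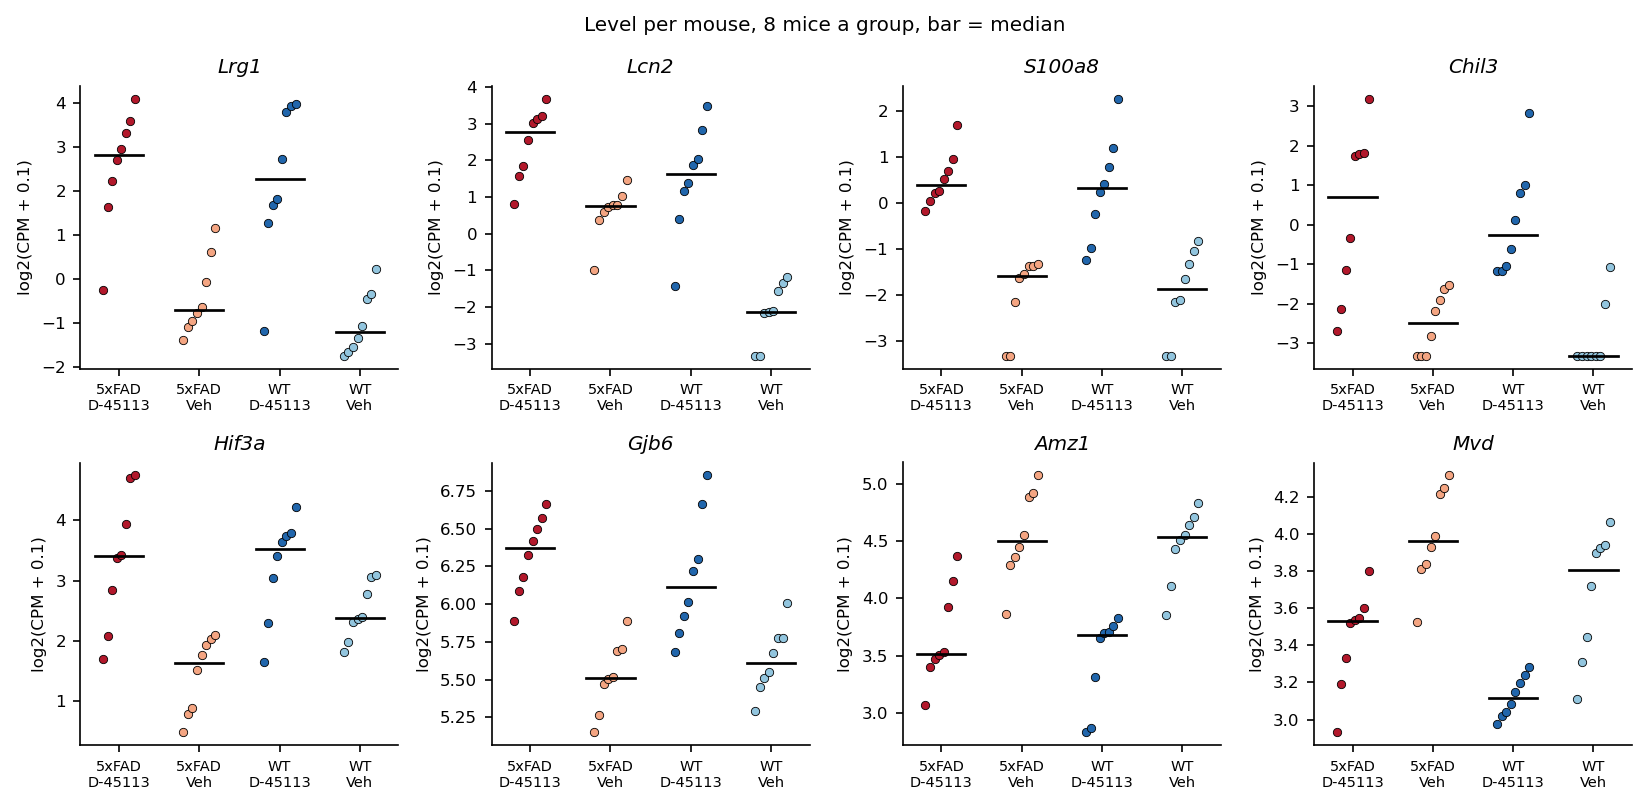
Levels of 8 genes per mouse as log2(CPM + 0.1), with 8 mice in each group and the median as a bar. Lrg1, Lcn2, S100a8, Chil3, Hif3a and Gjb6 are higher and Amz1 and Mvd lower with D-45113 in both genotypes. Some D-45113 mice lie among the vehicle mice in most panels, and several do so for Mvd.

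Low-level genes of neutrophils and monocytes were among the higher ones. S100a8 and S100a9 encode the subunits of calprotectin, an alarmin stored in neutrophils and monocytes. S100a8 had 0.793, 1.22 and 3.14 CPM in 5xFAD/D-45113 mice, against 0, 0.232 and 0.296 CPM in 5xFAD/Veh mice, without overlap. In WT/D-45113 mice it had 0.322, 1.16 and 4.72 CPM, against 0, 0.176 and 0.461 CPM in WT/Veh mice, which overlapped. S100a8 was 7.53-fold higher (log2 fold change 2.91, SE 0.43, adjusted p = 0.000279) and S100a9 7.56-fold (log2 fold change 2.92, SE 0.48, adjusted p = 0.000935). S100a9 had 0.382, 1.29 and 5.33 CPM over all D-45113 mice and 0, 0.208 and 0.666 CPM over all vehicle mice. Chil3, the gene of the chitinase-like lectin Ym1 of alternatively activated macrophages and neutrophils, had 0.0535, 0.833 and 8.999 CPM over all D-45113 mice and 0, 0 and 0.375 CPM over all vehicle mice. Its fitted log2 fold change was the largest among the genes called at a mean of at least 1 CPM (log2 fold change 4.58, SE 0.68, adjusted p = 0.00029), but the median vehicle mouse had 0 reads, so the size depends on the prior count. All 3 genes were called with both sets of marker scores and with each mouse left out. The 250 bases before the RefSeq start of S100a9 (GRCm38.p6, chr3:90695722-90695971, minus strand) are shown because S100a8 and S100a9 moved together and lie near each other on chromosome 3. Capitals mark a match to the C/EBP-type motif TTGCNNAA or TTNNGCAA, searched on both strands.
S100a9: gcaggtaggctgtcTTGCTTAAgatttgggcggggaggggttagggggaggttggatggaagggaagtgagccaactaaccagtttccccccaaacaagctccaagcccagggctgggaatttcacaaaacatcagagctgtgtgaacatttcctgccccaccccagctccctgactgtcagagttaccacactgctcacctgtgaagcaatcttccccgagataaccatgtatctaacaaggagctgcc
The motif was found in 9.56% of 32851 such windows of all genes, in 10.2% of 177 windows of the higher genes and in 6.43% of 280 windows of the lower genes. Its presence is a description of the sequence. The Chil3 window (chr3:106167565-106167814, minus strand), also searched, held 0 matches to this motif.

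The neutrophil list had 4 measured genes of 15. S100a8, S100a9 and the gelatinase gene Mmp9 (log2 fold change 1.04, SE 0.29, adjusted p = 0.0405) were higher, and the receptor gene Csf3r was not called (log2 fold change -0.26, adjusted p = 0.581). Mmp9 lost its call in 15 of the 32 fits with a mouse left out (adjusted p up to 0.0757) and given covariates for thalamus and choroid plexus (adjusted p = 0.219). The summed level of the list was 13.2, 16.97 and 21.2 CPM in 5xFAD/D-45113 mice, against 13.8, 21.5 and 26.2 CPM in 5xFAD/Veh mice, with the lower median under D-45113. In WT mice the sum was 6.998, 9.43 and 16.6 CPM with D-45113 and 2.97, 4.96 and 9.73 CPM with vehicle, with the higher median under D-45113. Csf3r, at a mean of 10.3 CPM over all mice, was the most abundant member. The other 11 genes were under the count filter, with 695 reads in the 16 D-45113 mice and 325 in the 16 vehicle mice. Among them the granulocyte genes Retnlg and Cxcr2 had 229 and 74 reads with D-45113, against 39 and 6 with vehicle, and the defining neutrophil marker Ly6g had 14 reads in 3 D-45113 mice, against 0 in vehicle mice. Ltf had 10 reads with D-45113, against 56 with vehicle, Il1r2 had 119 against 112 and Mpo had 33 against 26. These 6 were picked after their counts were seen. Of the 15 measured markers of border-associated macrophages and of monocytes, 4 were higher and 0 lower, 13 of them positive, and the median was 0.89 on the log2 scale (0.76 in 5xFAD and 0.87 in WT mice). Ccr2, the chemokine receptor of inflammatory monocytes, had 0.136, 0.489 and 2.51 CPM in D-45113 mice and 0, 0.08403 and 0.782 CPM in vehicle mice (log2 fold change 2.24, SE 0.51, adjusted p = 0.0141). Mrc1, the mannose receptor CD206 of perivascular and meningeal macrophages, had 1.71, 4.45 and 7.93 CPM in D-45113 mice and 0.424, 2.73 and 3.797 CPM in vehicle mice (log2 fold change 1.00, SE 0.23, adjusted p = 0.015). The ranges overlapped for both. The transglutaminase gene F13a1 (log2 fold change 1.70, adjusted p = 0.0261) lost its call without WT/D-45113 mouse 3M (adjusted p = 0.0529), which held the highest level of 22.001 CPM. The chemokine gene Pf4 (log2 fold change 1.37, adjusted p = 0.0473) lost its call in 23 of the 32 fits. The lysozyme gene Lyz2 (log2 fold change 1.19, adjusted p = 0.0391) lost it in 12. The integrin gene Itgad and the C-type lectin gene Clec4n, named after their values were seen, changed by 2.73 (adjusted p = 0.0124) and 2.60 (adjusted p = 0.0144) on the log2 scale at means of 0.490 and 0.316 CPM. Ccr2, Mrc1, F13a1, Pf4, Lyz2, Itgad and Clec4n were not called given covariates for thalamus and choroid plexus (adjusted p from 0.114 to 0.265). With the scores of the meninges and of the habenula, striatum and midbrain added they were not called either (adjusted p from 0.268 to 0.829), and the log2 fold changes were 2.14 for Ccr2, 0.44 for Mrc1 and 0.60 for F13a1. The summed level of 18 meningeal genes was 111, 260.1 and 458 CPM in D-45113 mice and 63.9, 154 and 339 CPM in vehicle mice.

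Of 23 genes of the glucocorticoid response, 9 were higher (Hif3a, Sult1a1, Plin4, Sgk1, Arrdc2, Nfkbia, Map3k6, Angptl4 and Mt1) and 0 lower, against 1.14% and 1.58% of all genes tested. This list, like the others, was chosen with earlier results of these data known. In all, 22 of 23 had a positive log2 fold change, with a median of 0.45 (0.57 in 5xFAD and 0.47 in WT mice). Hif3a, an inhibitory member of the hypoxia-inducible factor family, had 3.15, 10.5 and 26.8 CPM in 5xFAD/D-45113 mice, against 1.301, 3.03 and 4.17 CPM in 5xFAD/Veh mice. In WT/D-45113 mice it had 3.02, 11.4 and 18.5 CPM, against 3.44, 5.09 and 8.42 CPM in WT/Veh mice. Most D-45113 mice were above the vehicle mice of their genotype, with an overlap at the low end (log2 fold change 1.53, SE 0.29, adjusted p = 0.00392). Sgk1, a kinase that regulates ion channels, had 109.9, 195 and 549 CPM over all D-45113 mice and 79.5, 103 and 243 CPM over all vehicle mice (log2 fold change 1.10, SE 0.23, adjusted p = 0.00977). Plin4, a coat protein of lipid droplets, had 1.87, 8.81 and 51.01 CPM over all D-45113 mice and 0.592, 2.01 and 10.9 CPM over all vehicle mice (log2 fold change 2.28, SE 0.46, adjusted p = 0.00713). The sulfotransferase gene Sult1a1 had 3.795, 9.73 and 51.8 CPM over all D-45113 mice and 3.05, 5.4003 and 7.68 CPM over all vehicle mice (log2 fold change 1.40, SE 0.28, adjusted p = 0.00604). All 4 were called with each mouse left out. Of the 9 genes, only Hif3a was called with the thalamus and choroid plexus scores (log2 fold change 1.35, adjusted p = 0.0342), while Sgk1, Plin4 and Sult1a1 changed by 0.78, 1.95 and 1.13 on that scale (adjusted p = 0.138, 0.0909 and 0.0992). Tsc22d3, the glucocorticoid-induced leucine zipper gene, was not called (log2 fold change 0.44, adjusted p = 0.0823), nor was Fkbp5 (log2 fold change 0.38, adjusted p = 0.160). Arrdc2, Nfkbia, Map3k6, Angptl4, Mt1, Tsc22d3 and Fkbp5 are named after their values were seen.

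A promoter window of Sgk1 (GRCm38.p6, chr10:21993640-21993889, plus strand, 250 bases before a RefSeq start) is shown because Sgk1 was the gene of the list whose windows held a match to the glucocorticoid response element, searched on both strands as the half-sites AGAACA and TGTNCT, or AGNACA and TGTTCT, with any 3 bases between them. Capitals mark the match.
Sgk1: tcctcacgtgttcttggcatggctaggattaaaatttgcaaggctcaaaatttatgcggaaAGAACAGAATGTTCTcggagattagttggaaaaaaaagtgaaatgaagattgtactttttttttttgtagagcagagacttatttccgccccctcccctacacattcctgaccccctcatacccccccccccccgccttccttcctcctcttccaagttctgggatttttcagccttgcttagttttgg
The motif was found in 12 of 32851 windows of all genes (0.0365%), in 1 of 177 windows of the higher genes, which is this one, and in 0 of 280 windows of the lower genes. Promoter windows were found for 20 of the 23 genes of the list and for 139 of the 190 higher genes. The other windows of the list held no such letters, which says nothing of elements outside them.

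The D-45113 mice differed from each other in these genes. The 9 glucocorticoid-responsive genes called higher were counted in each D-45113 mouse where they exceeded every vehicle mouse of the same genotype. Of these 9 genes, 9 did so in 5xFAD/D-45113 mice 1F, 1M and 2F and in WT/D-45113 mouse 2F, 8 in 5xFAD/D-45113 mice 2M and 4F, and 6 or 7 in WT/D-45113 mice 1F, 3F and 4F. In the other 7 D-45113 mice 0 to 2 genes did so, and 6 of these 7 were males. For the acute-phase and myeloid genes Lrg1, Lcn2, S100a8, S100a9 and Chil3 the same count was 4 or 5 of 5 in 13 of the 16 D-45113 mice, 3 in WT/D-45113 mouse 4M, and 2 in 5xFAD/D-45113 mouse 4M and WT/D-45113 mouse 3M. These counts describe genes chosen on the same mice.

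No gene passed a test of a difference between the sexes in the response. The interaction of sex and treatment called 0 genes with edgeR's quasi-likelihood test (0% of 16723), with DESeq2, with voom and with the likelihood ratio test, and had 1946 genes at an unadjusted p under 0.05 (11.6%). Cirbp, Tsc22d3 and Rbm3 are named here after their values were seen. Cirbp and Rbm3 encode RNA-binding proteins that rise in the cold. Cirbp had a log2 fold change of 1.20 in females and 0.089 in males, with a difference (female minus male) of 1.10 (adjusted p = 0.362). Rbm3 had 1.29 in females and 0.37 in males (difference 0.88, adjusted p = 0.362). Tsc22d3 had 0.93 in females and -0.081 in males (difference 1.00, adjusted p = 0.362). Over both sexes Rbm3 (log2 fold change 0.80, SE 0.16, adjusted p = 0.00525) and Cirbp (log2 fold change 0.65, SE 0.16, adjusted p = 0.0195) were called.

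Single genes of astrocytes and vessels were also higher. Gjb6, the gene of the astrocytic gap junction protein connexin 30, had 59.01, 82.8 and 101 CPM in 5xFAD/D-45113 mice, against 35.5, 45.5 and 59.1 CPM in 5xFAD/Veh mice. WT/D-45113 mice had 51.2, 69.4 and 115 CPM of Gjb6 and WT/Veh mice had 39.04, 48.9 and 64.1 CPM. In 5xFAD mice the treatments overlapped by 1 mouse of each, 3M with D-45113 and 4M with vehicle, and in WT mice by several mice (log2 fold change 0.70, SE 0.10, adjusted p = 0.000256). Etnppl, an astrocytic enzyme that breaks down phosphoethanolamine, had 38.9, 110.3 and 182 CPM in 5xFAD/D-45113 mice, against 9.95, 18.6 and 27.5 CPM in 5xFAD/Veh mice, without overlap. In WT mice it had 21.5, 41.3 and 113 CPM with D-45113 and 16.8, 30.2 and 49.2 CPM with vehicle, which overlapped. Etnppl was 3.09-fold higher over both (log2 fold change 1.63, SE 0.28, adjusted p = 0.00161), with log2 fold changes of 2.46 in 5xFAD and 0.80 in WT mice, a difference of 1.66 that was not called (adjusted p = 0.312). Vwf, the gene of the clotting protein von Willebrand factor made by endothelium, had 52.9, 69.3 and 129.6 CPM in 5xFAD/D-45113 mice, against 20.9, 31.99 and 47.96 CPM in 5xFAD/Veh mice, without overlap. WT/D-45113 mice had 39.03, 49.7 and 135 CPM of Vwf, against 22.6, 33.6 and 51.5 CPM in WT/Veh mice, and overlapped (log2 fold change 1.11, SE 0.18, adjusted p = 0.000965). Acer2, a Golgi alkaline ceramidase, was also higher (log2 fold change 0.98, SE 0.16, adjusted p = 0.00113), with 0.98 in 5xFAD and 0.98 in WT mice. Gjb6, Etnppl, Vwf and Acer2 were called with both sets of marker scores.

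Ptgds, the prostaglandin D2 synthase gene of the meninges, choroid plexus and oligodendrocytes, had 249, 729 and 1482 CPM over all D-45113 mice and 190.5, 250.1 and 513 CPM over all vehicle mice. D-45113 mice reached far above the vehicle range but overlapped it (log2 fold change 1.36, SE 0.23, adjusted p = 0.00161). Its log2 fold change was 0.94 with the thalamus and choroid plexus scores (adjusted p = 0.0181) and 0.84 with all 4 scores (adjusted p = 0.0301). Of 18 genes of the meninges and fibroblasts, 2 were higher and 0 lower, 16 of them positive, and the median was 0.63. They were the small leucine-rich proteoglycan genes Fmod (log2 fold change 1.27, adjusted p = 0.018) and Ogn (log2 fold change 0.92, adjusted p = 0.0473), of which Ogn lost its call in 20 of the 32 fits with a mouse left out. Neither was called with the marker scores (adjusted p from 0.175 to 0.86). Both are themselves members of the meninges score used in the fit with all 4 scores, which favours the loss of their calls there. Of 22 genes of endothelium and the blood-brain barrier, 3 were higher (Vwf, Ly6a and Ly6c1) and 0 lower. The median was 0.12. The Ly6 family genes Ly6a (log2 fold change 0.60, adjusted p = 0.015) and Ly6c1 (log2 fold change 0.48, adjusted p = 0.0312) have close relatives, so that their counts are uncertain, and Ly6c1 lost its call in 5 fits (adjusted p up to 0.0547). Neither Ly6a nor Ly6c1 was called with the thalamus and choroid plexus scores (adjusted p = 0.186 and 0.262). Of 15 astrocyte genes 1 was higher (Gjb6) and of 29 reactive astrocyte genes 3 (Lcn2, Cp and Fbln5), with medians of 0.14 and 0.15. The reactive astrocyte list had medians of -0.12 in 5xFAD and 0.30 in WT mice. Gfap, the classic gene of reactive astrocytes, had a log2 fold change of 0.054 (adjusted p = 0.924).

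Iron genes included 4 higher members of 20 and 0 lower ones, with a median log2 fold change of 0.15. Slc11a2, the divalent metal transporter DMT1, had 36.2, 44.8 and 62.7 CPM over all D-45113 mice and 31.5, 37.01 and 45.1 CPM over all vehicle mice (log2 fold change 0.33, SE 0.064, adjusted p = 0.00492). Tfrc, the transferrin receptor that takes iron into cells, had 72.95, 95.5 and 200.2 CPM over all D-45113 mice and 43.3, 71.9 and 98.5 CPM over all vehicle mice (log2 fold change 0.51, SE 0.10, adjusted p = 0.00627). In both genes the ranges overlapped. Heph, the membrane ferroxidase hephaestin that works in iron export, also rose (log2 fold change 0.83, SE 0.18, adjusted p = 0.00963), with 1.36 in 5xFAD and 0.30 in WT mice. Ceruloplasmin, described above, is the fourth. Slc11a2 and Tfrc were called with the thalamus and choroid plexus scores (log2 fold changes 0.33 and 0.52) and not with all 4 scores, while Heph was called with neither set (adjusted p = 0.114 and 0.156). Further genes among the 15 of smallest p that were higher were Slc25a36, a mitochondrial nucleotide carrier (log2 fold change 0.46, adjusted p = 0.00239), Zfand4, a zinc finger gene (log2 fold change 0.97, adjusted p = 0.00392), and Pcnp, which encodes a nuclear protein (log2 fold change 0.36, adjusted p = 0.00394).

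The largest changes at a mean of at least 1 CPM included the developmental transcription factors Barhl1 and Tfap2b. Barhl1 marks neurons of the cerebellum, brainstem and hypothalamus, and Tfap2b neurons of the midbrain and other subcortical regions. Barhl1 had 0, 1.74 and 11.6 CPM in 5xFAD/D-45113 mice, against 0, 0.0937 and 1.56 CPM in 5xFAD/Veh mice. Its level was 0, 0.1798 and 2.13 CPM in WT/D-45113 mice and 0, 0.0677 and 0.331 CPM in WT/Veh mice, and over both genotypes it was higher (log2 fold change 3.03, SE 0.80, adjusted p = 0.0336). Tfap2b had 0.122, 6.04 and 39.2 CPM in 5xFAD/D-45113 mice, against 0, 0.475 and 2.35 CPM in 5xFAD/Veh mice, and was higher over both genotypes (log2 fold change 2.65, SE 0.67, adjusted p = 0.0288). For both genes the highest of all mice was 5xFAD/D-45113 mouse 1F, the groups overlapped at the low end, and the call was lost in 10 (Barhl1) and 3 (Tfap2b) of the 32 fits with a mouse left out. Neither was called with the marker scores as covariates.

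Amz1, which encodes a zinc metallopeptidase of the archaelysin family, had the smallest p of the lower genes. Its level was 8.29, 11.3 and 20.5 CPM in 5xFAD/D-45113 mice, against 14.5, 22.5 and 33.5 CPM in 5xFAD/Veh mice. In WT/D-45113 mice it was 7.02, 12.7 and 14.1 CPM, against 14.3, 23.1 and 28.4 CPM in WT/Veh mice. The WT groups did not overlap and the 5xFAD groups did. Amz1 fell to a fold of 0.525 (log2 fold change -0.93, SE 0.13, adjusted p = 0.000219), with -0.87 in 5xFAD and -0.99 in WT mice, and was called with both sets of marker scores (log2 fold change -0.95 and -0.64). Rgs20, a brake on G protein signalling, also did not overlap in WT mice, with 12.6, 18.1 and 20.9 CPM under D-45113 and 22.99, 26.2 and 35.3 CPM under vehicle (log2 fold change -0.57, SE 0.10, adjusted p = 0.00239). The SWIM zinc finger genes Zswim5 (log2 fold change -0.56, adjusted p = 0.000862) and Zswim6 (log2 fold change -0.71, adjusted p = 0.00258) fell together. Zswim5 had 15.7, 19.7 and 25.4 CPM in 5xFAD/D-45113 mice, against 28.6, 32.5 and 41.3 CPM in 5xFAD/Veh mice, without overlap. Ivns1abp, a kelch protein gene (log2 fold change -0.63, adjusted p = 0.000935), and Car11, a carbonic anhydrase-related protein without enzyme activity (log2 fold change -0.71, adjusted p = 0.000935), also fell. So did the kinase gene Akt2 of insulin signalling (log2 fold change -0.39, adjusted p = 0.00323), the RNA-binding protein gene Rbm24 (log2 fold change -0.63, adjusted p = 0.00258), the aminopeptidase gene Rnpep (log2 fold change -0.49, adjusted p = 0.00343), the palmitoyltransferase gene Zdhhc14 (log2 fold change -0.43, adjusted p = 0.00359) and Spata2l (log2 fold change -0.64, adjusted p = 0.00247). These genes were called with each mouse left out, while under the thalamus and choroid plexus covariates Amz1, Rgs20, Zswim5, Zswim6, Ivns1abp, Car11, Akt2 and Rbm24 were called. With the scores of the meninges and of the habenula, striatum and midbrain added, only 2 lower genes were called, Amz1 and Mvd. The other genes of this paragraph were not called in that fit.

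The neuronal genes Kcna4 and Sez6 were among the lower ones. Kcna4 encodes the potassium channel Kv1.4, which carries a fast inactivating current. It had 15.1, 34.7 and 54.4 CPM over all D-45113 mice and 32.9, 52.98 and 82.1 CPM over all vehicle mice (log2 fold change -0.67, SE 0.12, adjusted p = 0.00267). Sez6, a membrane protein that shapes dendrites and excitatory synapses, had 117, 205 and 309.7 CPM over all D-45113 mice and 197, 323 and 659 CPM over all vehicle mice (log2 fold change -0.70, SE 0.13, adjusted p = 0.00323). Ankrd63, an ankyrin repeat gene, had 13.9, 54.9 and 89.1 CPM over all D-45113 mice and 40.1, 107 and 224 CPM over all vehicle mice (log2 fold change -1.11, SE 0.20, adjusted p = 0.00323). Ranges overlapped in all 3 genes, and the log2 fold changes of Sez6 were -0.69 in 5xFAD and -0.72 in WT mice. Kcna4 and Ankrd63 were called with the thalamus and choroid plexus scores, and Sez6 was not (adjusted p = 0.0665). None of these 3 genes was called with the scores of the meninges and of the habenula, striatum and midbrain added. Of 37 postsynaptic genes 2 were lower and 0 higher, against 1.58% and 1.14% of all genes tested, with 31 negative and a median of -0.18. The median was -0.39 in 5xFAD and 0.049 in WT mice. The scaffold gene Homer1 (log2 fold change -0.61, adjusted p = 0.0138) and Baiap2, which acts on the actin of dendritic spines (log2 fold change -0.47, adjusted p = 0.0234), were the members called. Of 32 immediate early genes, which neurons switch on with activity, 3 were lower (Homer1, Egr1 and Egr4) and 0 higher, with 21 negative and a median of -0.18. Their median was -0.51 in 5xFAD and 0.0094 in WT mice. Egr1 had 55.8, 196 and 366 CPM over all D-45113 mice and 149.6, 286 and 627 CPM over all vehicle mice (log2 fold change -0.82, SE 0.19, adjusted p = 0.0141), and log2 fold changes of -1.15 in 5xFAD and -0.49 in WT mice. Egr4 (log2 fold change -0.69, adjusted p = 0.0312) lost its call in 5 fits with a mouse left out. Of 16 interneuron genes the noncoding Dlx6os1 was lower (log2 fold change -0.54, adjusted p = 0.015). Homer1, Baiap2, Egr1, Egr4 and Dlx6os1 were not called with the thalamus and choroid plexus scores (adjusted p from 0.105 to 0.296). Of 30 presynaptic, 14 dentate granule cell and 20 pyramidal cell genes 0 were called, with medians of -0.013, 0.059 and -0.060. These pooled medians join opposite signs, with -0.17, -0.29 and -0.31 in 5xFAD mice and 0.15, 0.46 and 0.24 in WT mice. The differences of these lists between the genotypes were not tested.

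Penk, Gdnf and Ankk1 were among the largest decreases at a mean of at least 1 CPM. Penk, the precursor of the enkephalin opioid peptides, had 22.6, 257 and 629 CPM over all D-45113 mice and 141, 556 and 1297 CPM over all vehicle mice (log2 fold change -1.21, SE 0.33, adjusted p = 0.0397). Gdnf, a neurotrophic factor, had 0, 0.507 and 1.17 CPM over all D-45113 mice and 0.217, 1.09 and 3.82 CPM over all vehicle mice (log2 fold change -1.67, SE 0.38, adjusted p = 0.013). The kinase gene Ankk1, a neighbour of the dopamine receptor gene Drd2, had 0, 0.978 and 2.65 CPM over all D-45113 mice and 0.831, 2.89 and 7.996 CPM over all vehicle mice (log2 fold change -1.50, SE 0.36, adjusted p = 0.0199). Penk lost its call in 13 of the 32 fits with a mouse left out, and Gdnf and Ankk1 in 0. With all 4 marker scores, the habenula, striatum and midbrain among them, their log2 fold changes were -0.56, -0.94 and -0.52 and none was called. Penk is itself a member of that list. Further genes of large change were Sec14l3, a lipid-binding protein of the SEC14 family (log2 fold change -1.57, adjusted p = 0.0111), and Tlr12, a Toll-like receptor for profilin of parasites in the mouse (log2 fold change -1.34, adjusted p = 0.00366). Tlr12 had 0.551, 0.998 and 1.67 CPM in 5xFAD/D-45113 mice, against 2.64, 3.74 and 5.09 CPM in 5xFAD/Veh mice, without overlap. Among WT mice the levels were 0.278, 0.948 and 1.505 CPM with D-45113 and 0.683, 1.17 and 3.38 CPM with vehicle, and the groups overlapped.

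Of 24 cholesterol synthesis genes, 4 were lower and 0 higher, and 22 had a negative log2 fold change. The median was -0.23 (-0.33 in 5xFAD and -0.15 in WT mice), and 18 were negative in both genotypes. Mvd, the mevalonate decarboxylase of the sterol pathway, had 7.53, 11.5 and 13.8 CPM in 5xFAD/D-45113 mice, against 11.4, 15.5 and 19.9 CPM in 5xFAD/Veh mice. WT mice had 7.78, 8.59 and 9.65 CPM of Mvd with D-45113 and 8.54, 13.9 and 16.6 CPM with vehicle. WT/D-45113 mice lay at the bottom of the WT/Veh range and overlapped it (log2 fold change -0.57, SE 0.096, adjusted p = 0.00107). The log2 fold changes were -0.56 in 5xFAD and -0.59 in WT mice. Mvd was called with both sets of marker scores (log2 fold change -0.56 and -0.67). The sterol dehydrogenase gene Nsdhl (log2 fold change -0.38, adjusted p = 0.0298), the master regulator Srebf2 (log2 fold change -0.32, adjusted p = 0.0303) and the sterol methyl oxidase gene Msmo1 (log2 fold change -0.36, adjusted p = 0.045) were called by a narrow margin. Nsdhl lost its call without 5xFAD/Veh mouse 1F (adjusted p = 0.0556), Srebf2 without that mouse, 5xFAD/D-45113 mouse 2M or WT/Veh mouse 1M (up to 0.0547), and Msmo1 in 23 of the 32 fits. None of these 3 was called with the thalamus and choroid plexus scores (adjusted p from 0.179 to 0.312). Of 30 heat shock and unfolded protein response genes 3 were lower and 0 higher, with 24 negative and a median of -0.11. They were the chaperone genes Hsph1 (log2 fold change -0.38, adjusted p = 0.0397) and Calr (log2 fold change -0.31, adjusted p = 0.0349) and the disulfide isomerase gene Pdia6 (log2 fold change -0.30, adjusted p = 0.0342). Hsph1 lost its call in 14 fits with a mouse left out, Calr without 5xFAD/D-45113 mouse 1M or either of 5xFAD/Veh mice 1F and 4F (up to 0.0634), and Pdia6 without 5xFAD/D-45113 mouse 2F or either of the same 5xFAD/Veh mice (up to 0.0642). All 3 lost their calls with the thalamus and choroid plexus scores (adjusted p from 0.111 to 0.261).

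Few microglial genes were called over both genotypes. Csf1r, the target of the inhibitor, had 184, 230.5 and 287 CPM in 5xFAD/D-45113 mice, against 248, 314 and 365 CPM in 5xFAD/Veh mice. In WT/D-45113 mice it had 86.9, 143 and 173 CPM, against 114, 140.4 and 195 CPM in WT/Veh mice. In 6 of 8 5xFAD/D-45113 mice Csf1r was below every 5xFAD/Veh mouse, the WT groups overlapped widely, and the gene was not called over both genotypes (log2 fold change -0.24, SE 0.090, adjusted p = 0.152). The integrin genes Itgam (log2 fold change -0.44, adjusted p = 0.111) and Itgax (log2 fold change -0.58, adjusted p = 0.262) were not called either. Their log2 fold changes were -0.85 in 5xFAD and -0.018 in WT mice for Itgam and -1.07 in 5xFAD and 0.55 in WT mice for Itgax. Of 33 genes of disease-associated microglia and 18 genes of CSF1R and myeloid growth factor signalling, 0 were called, with medians of -0.086 and -0.096. At an unadjusted p under 0.05 these lists had 6 and 3 genes, near the 16.9% of all genes tested. Their medians were -0.17 and -0.14 in 5xFAD mice and 0.044 and -0.0046 in WT mice. Among microglial marker genes named whatever their result, the log2 fold changes were Cst7 -0.63 (adjusted p = 0.361), Clec7a -0.41 (adjusted p = 0.495), Trem2 -0.32 (adjusted p = 0.199), Tyrobp -0.25 (adjusted p = 0.486), P2ry12 -0.40 (adjusted p = 0.0764), Tmem119 -0.42 (adjusted p = 0.0674) and Aif1 -0.31 (adjusted p = 0.396), and none of these 7 was called. Of 30 pan-myeloid genes 1 was lower (Irf8) and 1 higher (Lyz2), with 24 negative and a median of -0.19. The medians were -0.38 in 5xFAD and 0.039 in WT mice. Irf8, a transcription factor needed by microglia and other myeloid cells, had 10.4, 15.5 and 23.6 CPM in 5xFAD/D-45113 mice, against 23.96, 28.3 and 37.95 CPM in 5xFAD/Veh mice, without overlap. In WT mice it had 3.75, 5.13 and 11.3 CPM with D-45113 and 5.32, 7.42 and 9.69 CPM with vehicle, which overlapped (log2 fold change -0.64, SE 0.14, adjusted p = 0.0126). Of 23 homeostatic microglia genes 4 were lower (Selplg, Fcrls, Olfml3 and the transporter gene Slco2b1) and 1 was higher, with 19 negative and a median of -0.19. Selplg, the ligand of P-selectin (log2 fold change -0.44, adjusted p = 0.015), the Fc receptor-like gene Fcrls (log2 fold change -0.75, adjusted p = 0.0281) and the secreted protein gene Olfml3 (log2 fold change -0.63, adjusted p = 0.0354) had log2 fold changes in WT mice of -0.18, -0.22 and -0.18, against -0.69, -1.27 and -1.07 in 5xFAD mice. Fcrls lost its call (adjusted p = 0.0508) when 5xFAD/D-45113 mouse 2M was left out and Olfml3 in 8 fits with a mouse left out. Sparc, a matrix protein gene that astrocytes and endothelium also express, was the higher one (log2 fold change 0.69, SE 0.15, adjusted p = 0.0107). Irf8, Selplg, Fcrls, Olfml3 and Sparc were not called with either set of marker scores.

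Of 33 MHC and interferon-gamma response genes 4 were lower (H2-DMa, Gbp3, Irgm2 and Cxcl9) and 0 higher, with 31 negative and a median of -0.49. The medians were -0.80 in 5xFAD and 0.092 in WT mice, with 0 of 33 positive in 5xFAD and 20 of 33 in WT mice, and the difference of the list between the genotypes was not tested. H2-DMa, which loads peptides onto MHC class II, had 7.65, 11.7 and 19.5 CPM in 5xFAD/D-45113 mice, against 17.7, 20.1 and 28.1 CPM in 5xFAD/Veh mice. It had 9.11, 11.5 and 15.2 CPM in WT/D-45113 mice and 11.1, 14.2 and 16.6 CPM in WT/Veh mice, so that both genotypes overlapped (log2 fold change -0.52, SE 0.11, adjusted p = 0.00977). The interferon-induced GTPase genes Gbp3 (log2 fold change -0.89, adjusted p = 0.0136) and Irgm2 (log2 fold change -0.65, adjusted p = 0.0286) have close relatives, and their counts are uncertain for that reason. Irgm2 lost its call without 5xFAD/Veh mouse 1F (adjusted p = 0.0512). Cxcl9, a chemokine that draws T cells, was at or near 0 in WT mice of both treatments (highest 0.231 CPM with D-45113 and 0.387 CPM with vehicle), had 0, 0.204 and 0.649 CPM in 5xFAD/D-45113 mice and 0.506, 1.48 and 5.54 CPM in 5xFAD/Veh mice, and lost its call (log2 fold change -2.41, adjusted p = 0.0406) in 20 of the 32 fits. Cx3cl1, the neuronal chemokine fractalkine whose receptor sits on microglia, was lower (log2 fold change -0.44, SE 0.084, adjusted p = 0.00392), with log2 fold changes of -0.64 in 5xFAD and -0.24 in WT mice. H2-DMa, Gbp3, Irgm2, Cxcl9 and Cx3cl1 were not called with the thalamus and choroid plexus scores (adjusted p from 0.0944 to 0.245). Of 31 type I interferon genes 0 were called, with medians of -0.45 in 5xFAD and 0.13 in WT mice. At an unadjusted p under 0.05 there were 7 of the 31, against 16.9% of all genes tested.

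**Figure D4:**
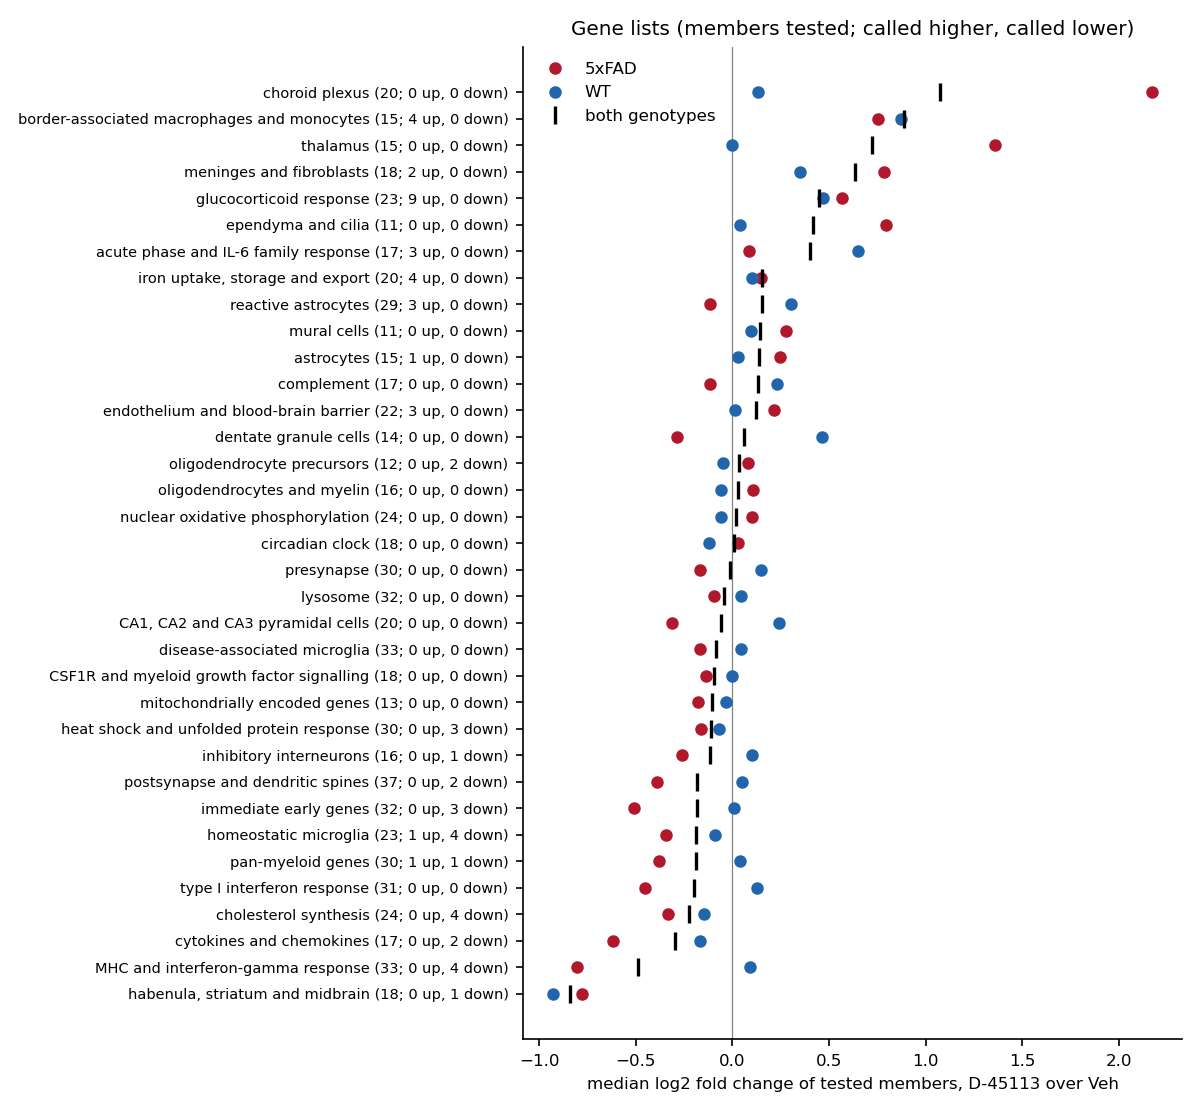
Median log2 fold change of the measured members of gene lists with at least 10 of them, in 5xFAD mice (red), in WT mice (blue) and over both genotypes (black bar). The labels give the number of members measured and the numbers called higher and lower. The median of the glucocorticoid list is 0.57 in 5xFAD and 0.47 in WT mice and that of the MHC and interferon-gamma list -0.80 in 5xFAD and 0.092 in WT mice, differences that were not tested.

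Oligodendrocyte precursor genes had 2 lower members of 12, and 0 of 16 genes of mature oligodendrocytes and myelin were called. Gpr17, the receptor of precursors committed to differentiate, had 4.45, 17.02 and 28.3 CPM over all D-45113 mice and 16.9, 24.7 and 37.6 CPM over all vehicle mice (log2 fold change -0.67, SE 0.16, adjusted p = 0.0175). The proteoglycan gene Cspg5 (log2 fold change -0.27, adjusted p = 0.0327) lost its call without 5xFAD/Veh mice 1F, 4F or 3M or WT/Veh mouse 4F (up to 0.0564). Neither Gpr17 nor Cspg5 was called with the thalamus and choroid plexus scores (adjusted p = 0.17 and 0.313). Of 32 lysosomal, 17 complement, 11 mural cell, 18 circadian clock, 13 mitochondrially encoded and 24 nuclear oxidative phosphorylation genes 0 were called, with medians from -0.11 to 0.14. At an unadjusted p under 0.05 these lists had 6, 4, 2, 3, 3 and 0 genes, against 16.9% of all genes tested. Their medians ran from -0.18 to 0.28 in 5xFAD mice and from -0.12 to 0.23 in WT mice.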

How the data were processed

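RNA sequencing of 32 hippocampi was deposited by the authors as raw counts per gene and as FPKM (fragments scaled by gene length and library size), both in whole-series tables. The submitters' processing notes name mm10, while the aligner, the counter and their use of strand were not given in the sources used here. Counts were the basis of every result, and the deposited FPKM served as an alternative on the log2(FPKM + 1) and log2(FPKM + 0.1) scales with limma. Groups, sex and mouse number came from the sample titles. The p-values measure the spread between these mice.

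Counts were filtered by filterByExpr on the 4 groups (16723 of 54532 genes), scaled by TMM and fitted with edgeR's quasi-likelihood test (robust, genotype + treatment) with Benjamini-Hochberg adjustment. CPM values use the TMM-scaled totals of the genes tested. Interactions of treatment with genotype and with sex were fitted in models of their own. Versions were R 4.3.3, edgeR 4.0.16, limma 3.58.1, DESeq2 1.42.0, Python 3.11.15 and matplotlib 3.10.9. The fit was tested on simulated counts. Libraries held 10707410 to 30368498 counts, and no pair within a group was a duplicate.

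Named genes were the 15 of smallest p in each direction, the 5 that changed most among genes averaging 1 CPM or more, up to 4 members per list by p, and fixed microglial genes. The comparison, the 38 gene lists and the named genes were chosen with earlier results of these data known. Alternatives were other normalizations, tools, filters, covariates, sample subsets, FPKM, a replicate block and each mouse left out. Gene names and coordinates are those of the deposited tables on mm10, and promoter windows come from RefSeq (GRCm38.p6), cut to the 250 bases before the start.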

Additional observations from a re-analysis of the deposited data

Results flagged for a closer look

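In groups of 8 mice, a mouse was picked out where its gap to the nearest mouse, divided by the range of the group, was above Dixon's 95% critical value. Of 336 gene and group combinations 21 were picked out (6.25%), and chance picks out about 1 in 20. All values are CPM.

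WT/D-45113 mouse 2F was the lowest of its group in 6 genes, namely Nsdhl (11.6), Srebf2 (178), Fcrls (5.67), Csf1r (86.9), Itgam (3.22) and Cspg5 (214). WT/Veh mouse 1M was far above or below its group in 4 genes, with the highest levels of Zswim5 (55.2), Rnpep (43.6) and Sez6 (659) and the lowest of Mrc1 (0.424).

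The other values were single. 5xFAD/D-45113 mouse 2M stood apart in Car11 (38.4), WT/D-45113 mouse 3M in Ankk1 (0.136) and WT/D-45113 mouse 3F in Cxcl9 (0.231). In 5xFAD/Veh mice, 3M stood apart in Lcn2 (0.407), 1M in Mmp9 (0) and Barhl1 (1.56), 3F in Homer1 (322) and 4M in Gpr17 (16.9). In WT/Veh mice, 2F stood apart in Cxcl9 (0.387) and 4M in Pdia6 (118) and Gbp3 (1.42).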

How the results depend on the processing

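The counts of 190 higher and 264 lower genes stayed within 1.5 times under RLE size factors, limma voom, the likelihood ratio test, other filters on low counts, sex as a covariate, FPKM and the mean of the genotypes. They did not under DESeq2 (304 higher and 448 lower), the thalamus and choroid plexus scores (19 and 26), all 4 marker scores (12 and 2), females only (81 and 40), males only (0 and 0), WT only (0 and 0) and an absolute log2 fold change over 0.5 (110 and 132). For higher genes alone they also moved in 5xFAD only (307), without 5xFAD/D-45113 mice 3F and 4F of the smallest libraries (123), without the mice with WT-like Thy1 (104) and without the choroid plexus rich mice (89), the last pair chosen after seeing the data. The subsets hold fewer mice, and otherwise the cause was not tested. With 1 mouse left out the counts ran from 91 to 250 higher and from 144 to 326 lower. The interaction of genotype and treatment had 14 genes with DESeq2, 11 with the likelihood ratio test and 0 to 2 with a mouse left out, and that of sex and treatment 0 to 0. Itgax reversed in WT only (log2 fold change 0.57, adjusted p = 0.912, edgeR) and Tsc22d3 in males only (-0.081, adjusted p = 0.866, edgeR), the cause being not tested. Of the 80 called genes named in the text, 54 lost their call with the thalamus and choroid plexus scores, 67 with all 4 scores, 3 with the replicate block and 0 with DESeq2. The titles do not say whether the mouse numbers pair the samples. A pairing was examined by correlations and by the replicate block, without a formal test. Across groups, the deviations of same-numbered mice had r from -0.234 to 0.282 (median 0.0491, 17 of 48 over 0.1). Those of mice with other numbers had r from -0.413 to 0.425 (median -0.00909, 67 of 336 over 0.1). Of the 32 mice, 8 correlated best with their own number. Same-numbered mice are also of the same sex, so number and sex cannot be told apart here. The replicate block gave 181 higher and 310 lower genes. Low genes such as Chil3, S100a8 and Cxcl9 rest on few reads per mouse, which limits the precision of their fold changes.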
